A study of Mus musculus with 9 samples.

Results

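The genes described here are the SOXF transcription factor genes Sox7, Sox17 and Sox18 and the ETS-family transcription factor gene Erg. They were taken by name from the deposited count tables, and all 4 had a row in both tables, which listed 237 and 194 genes. The RNA came from C57BL/6 mice, from the tissue labelled mPFC (medial prefrontal cortex), and was sequenced as 3 groups of 3 libraries. The groups were the insoluble fraction at 22 months of age, overexpression of YTHDF1 and YTHDF2 (YTHDF1+2 OE), and RNA immunoprecipitation with YTHDF2 (YTHDF2 RIP). The labels gave no age for the OE and RIP animals, no fraction for the OE libraries, and no vector or promoter for the overexpression. They also did not say whether libraries of a group came from separate animals, so p-values measure the spread between these libraries, which may be technical. Each group was compared with the same 3 insoluble libraries, and no input or control precipitation was analysed beside the RIP. Statements on RIP assume that its counts stand beside the right gene names. The fold changes deposited with the RIP counts did not follow those counts, as described below.

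SOXF proteins bind DNA through an HMG box, and ERG binds it through an ETS domain. In blood vessels these factors act in endothelial cells, where they regulate genes of vessel identity, junctions and Notch and VEGF signalling, and SOX17 is known for a role in arterial and blood-brain barrier endothelium. YTHDF1 and YTHDF2 are cytoplasmic proteins that bind mRNA carrying N6-methyladenosine (m6A), and YTHDF2 is known for promoting the decay of such mRNA.

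All 4 genes are annotated as protein-coding on GRCm38 (GENCODE M21). Sox7 (ENSMUSG00000063060) lies on chromosome 14 from 63943673 to 63950732 on the plus strand. Sox17 (ENSMUSG00000025902) lies on chromosome 1 from 4490931 to 4497354, Sox18 (ENSMUSG00000046470) on chromosome 2 from 181669836 to 181671640, and Erg (ENSMUSG00000040732) on chromosome 16 from 95359169 to 95586593, each on the minus strand. Sox7, Sox18 and Erg overlapped no other annotated gene. Sox17 shared 804 of its 4772 exonic bases with Gm37587 on the opposite strand. Whether counting used the strand is not given in the sources used here, so the Sox17 counts carry that uncertainty.

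The SOXF genes are paralogs, and the coding window in which they were most alike is shown because reads from such a stretch are the most likely to be misassigned between them. The window spans 90 bases inside the part that encodes the HMG box, each within a single exon, on chromosome 14 from 63947773 to 63947862 (Sox7), chromosome 1 from 4492561 to 4492650 (Sox17) and chromosome 2 from 181670889 to 181670978 (Sox18). Capitals mark bases that are the same in all 3 genes, read 5′ to 3′ along the transcript.
Sox7: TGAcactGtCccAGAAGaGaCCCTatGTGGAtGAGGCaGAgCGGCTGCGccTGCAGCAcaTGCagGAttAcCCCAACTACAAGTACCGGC
Sox17: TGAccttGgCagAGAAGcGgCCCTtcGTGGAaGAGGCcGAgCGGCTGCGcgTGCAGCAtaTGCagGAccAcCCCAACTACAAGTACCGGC
Sox18: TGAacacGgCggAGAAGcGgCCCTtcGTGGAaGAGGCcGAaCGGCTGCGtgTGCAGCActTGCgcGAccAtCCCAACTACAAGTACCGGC

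Of the 90 bases, 67 were shared by all 3 genes. Sox17 and Sox18 were the most alike pair with 79 identical bases, Sox7 and Sox17 shared 75, and Sox7 and Sox18 shared 68. Even there, the longest run of bases found in the transcripts of any pair of SOXF genes was 29 bases, between Sox17 and Sox18. Of the 50-base words of 1 transcript per gene, 100% were found in no transcript of another gene for Sox17, Sox18 and Erg, and 99.9% for Sox7. The transcripts taken were those with the longest complete coding sequence, which for Sox17 shares no 50-base word with Gm37587.

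YTHDF proteins read m6A, which lies in a consensus whose commonest form is GGACT in DNA letters, so matches of these 5 letters on the transcript strand were located. The coding sequences held 3 matches in Sox7, 4 in Sox17, 2 in Sox18 and 1 in Erg, or 2.62, 3.17, 1.76 and 0.684 per kilobase. The median over 21502 protein-coding genes of the annotation was 1.04 per kilobase, and 72.4% of their coding sequences held at least 1 match. Over 159 protein-coding genes of the OE table the median was 1.21 per kilobase. Within coding sequence the 3 SOXF genes lay above both medians and Erg below them. Over the whole transcript the densities were 0.909 in Sox7, 1.92 in Sox17, 1.24 in Sox18 and 0.923 in Erg, against medians of 1.02 over the annotation and 1.25 over the OE table. On that measure Sox7 lay below both medians, next to Erg, and Sox17 was the only one of the 4 above both, so the order depended on the part of the transcript counted. The SOXF coding sequences had a GC content of 61.2% to 67.7% and that of Erg one of 54.8%. A match is not a measured m6A site.

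The match nearest the stop codon inside the coding sequence is shown for each gene with 20 bases on either side, with the motif in capitals. For Erg this is the only coding match, at base 334 of a transcript whose coding sequence runs from 152 to 1612, far from the stop codon. In Sox17 and Erg a match downstream of the coding sequence, at base 2528 and base 2135, lies nearer the stop codon than the match shown. The windows lie on chromosome 14 from 63948551 to 63948595 (Sox7), chromosome 1 from 4492181 to 4492225 (Sox17), chromosome 2 from 181670330 to 181670374 (Sox18) and chromosome 16 from 95409785 to 95409829 (Erg), on the strand of each gene.
Sox7: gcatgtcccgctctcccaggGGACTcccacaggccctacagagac
Sox17: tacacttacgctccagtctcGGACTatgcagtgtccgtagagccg
Sox18: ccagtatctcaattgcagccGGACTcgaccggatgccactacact
Erg: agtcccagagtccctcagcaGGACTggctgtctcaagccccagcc

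**Figure D1:**
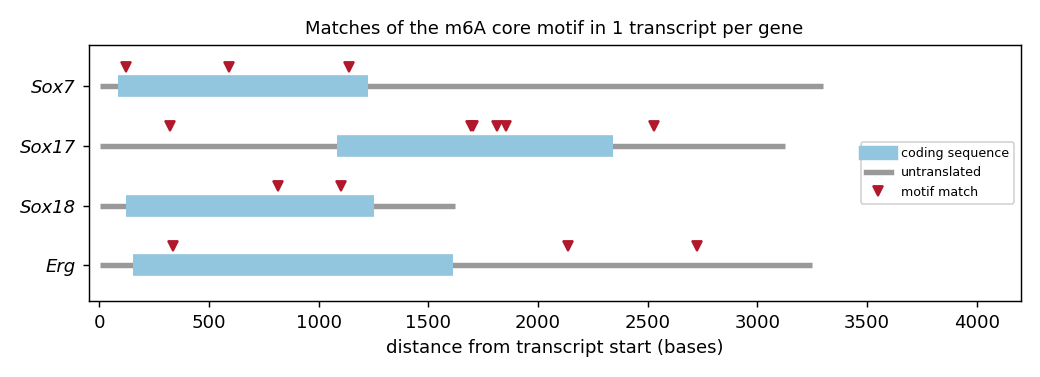
Transcript with the longest complete coding sequence of each gene, drawn by distance from the transcript start in bases, with coding sequence as thick bars, untranslated parts as thin bars and GGACT matches as triangles. All matches of Sox7 (3) and Sox18 (2) lie in the coding sequence, and 2 of the 3 matches of Erg lie downstream of it.

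The count tables held selected genes. Their totals were 66812 to 77705 counts in the insoluble libraries and 80116 to 99369 in OE over 237 genes, and 61610 to 71736 in the insoluble libraries and 79389 to 83620 in RIP over 194 genes. These are not sequencing depths, and every scaling between libraries rested on the listed genes. Of 20 neuron, 15 astrocyte and 15 oligodendrocyte markers looked for, 0 were among the genes analysed here, and the tissue label could not be checked against them. Of 73 endothelial effector genes looked for, 22 were in the OE table. In bulk RNA, a change in the number of endothelial cells and a change in RNA per cell cannot be told apart.

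Insoluble libraries 1 to 3 had 30, 21 and 27 raw counts of Sox7, OE libraries 1 to 3 had 52, 58 and 53, and RIP libraries 1 to 3 had 575, 639 and 616. The 3 groups did not overlap in raw counts, which take no account of library totals, and RIP stood far above the rest. Insoluble libraries 1 to 3 had 126, 126 and 106 raw counts of Sox17, OE libraries 1 to 3 had 219, 168 and 133, and RIP libraries 1 to 3 had 275, 310 and 283. Its groups also did not overlap, although OE library 3 came close to the insoluble libraries.

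Insoluble libraries 1 to 3 had 111, 103 and 79 raw counts of Sox18, OE libraries 1 to 3 had 116, 114 and 126, and RIP libraries 1 to 3 had 237, 251 and 225. The raw counts of OE lay just above those of the insoluble fraction, and those of RIP lay well above both. Insoluble libraries 1 to 3 had 31, 29 and 40 raw counts of Erg, OE libraries 1 to 3 had 71, 47 and 49, and RIP libraries 1 to 3 had 150, 156 and 141, again with no overlap between groups in raw counts. Raw counts take no account of the larger totals of the OE and RIP libraries, so groups can separate in raw counts without a change. After scaling, the insoluble and OE groups overlapped for Sox18 and for Erg. Gm45869, Gm42770 and Gm43272, none of them called in OE, also had higher raw counts in OE without overlap. Gm45869 had 141, 117 and 91 in insoluble libraries 1 to 3 and 169, 165 and 147 in OE libraries 1 to 3. After scaling, OE lay above the insoluble fraction without overlap for 26.2% of the genes tested below, and RIP for 43.2%. The share of all genes whose raw counts separate was not computed. Separation in raw counts is thus not shown to be particular to Sox7, Sox17, Sox18 and Erg.

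**Figure D2:**
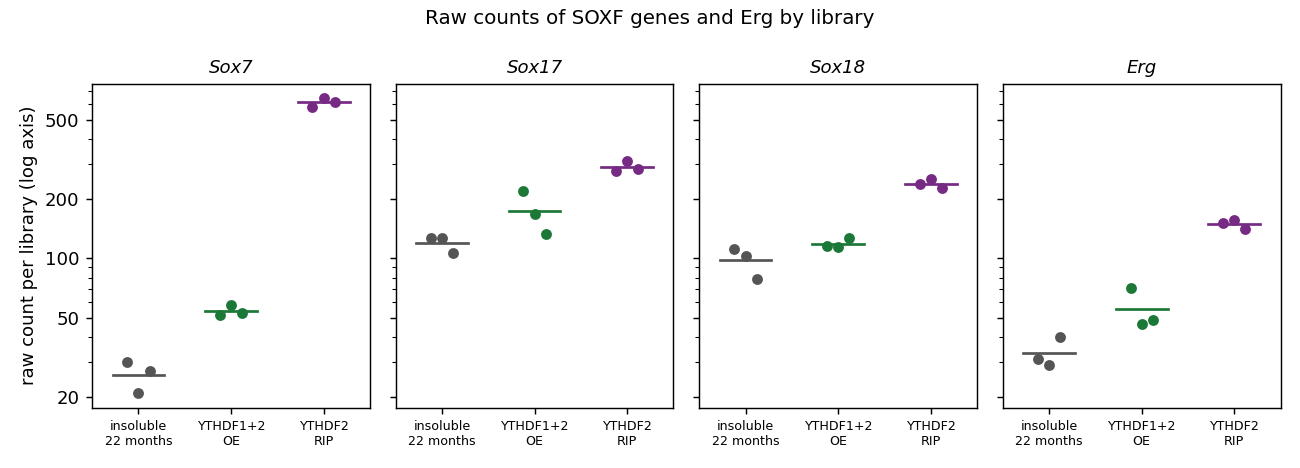
Raw count per library on a log axis for Sox7, Sox17, Sox18 and Erg in the insoluble fraction, OE and RIP (points: 3 libraries a group, bars: group mean). Sox7 runs from 21 to 30 counts in the insoluble libraries and from 575 to 639 in RIP, the widest separation of the 4 genes.

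Levels of different genes were compared as raw counts per kilobase of annotated exon within a library. In the insoluble fraction Sox18 was the highest at 60.3 ± 10.3 counts per kilobase (SD, n = 3), followed by Sox17 at 25.0 ± 2.42, Erg at 9.62 ± 1.69 and Sox7 at 7.88 ± 1.39. Sox18 was first and Sox17 second in each insoluble and each OE library. Erg and Sox7 changed places between libraries in both groups, so their order was within the spread. In OE the levels were 73.3 ± 3.97 for Sox18, 36.3 ± 9.06 for Sox17, 16.5 ± 0.975 for Sox7 and 16.1 ± 3.84 for Erg.

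The order was different in RIP, where Sox7 was first in all 3 libraries at 184.9 ± 9.83 counts per kilobase (SD, n = 3). Sox18 followed at 146.7 ± 8.03, Sox17 at 60.6 ± 3.84 and Erg at 43.0 ± 2.18, and no neighbours in this order overlapped. Sox7 thus went from the lower end of the order in the insoluble fraction to the top in RIP.

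The make-up of the summed counts of the 4 genes needs no scaling between libraries. Sox7 made up 9.44% ± 1.69 of the sum in the insoluble fraction, 13.7% ± 2.02 in OE and 47.4% ± 1.14 in RIP (SD, n = 3 each). Sox17 made up 43.2% ± 1.73, 42.7% ± 5.52 and 22.5% ± 0.331, and Sox18 35.2% ± 3.32, 29.9% ± 4.80 and 18.5% ± 0.686. The share of Erg was 12.2% ± 3.16, 13.7% ± 1.69 and 11.6% ± 0.496. Its insoluble libraries, from 10.4% to 15.9%, overlapped both other groups. Its OE libraries, from 12.145%, lay just above its RIP libraries, which reached 12.126%.

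**Figure D3:**
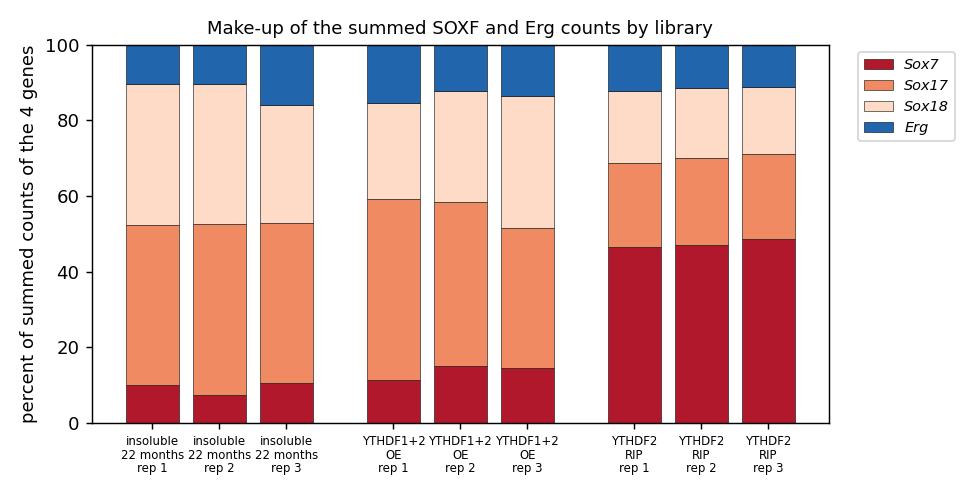
Percent of the summed counts of Sox7, Sox17, Sox18 and Erg that each gene took in each of the 9 libraries (stacked bars from 0 to 100%). The Sox7 segment takes 46.5% to 48.7% in the RIP libraries and 7.53% to 10.7% in the insoluble libraries.

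The comparison of OE with the insoluble fraction was fitted with edgeR's quasi-likelihood test over the whole table, with Benjamini-Hochberg adjustment over 195 tested genes and calls at an adjusted p under 0.05. Sox7, Sox17 and Erg rose in OE and Sox18 was not called, so 3 of the 4 genes were called higher. Of all tested genes 21% were called higher, 18.5% lower and 39.5% in either direction. The median log2 fold change was 0.40 over the 4 genes and -0.01 over all tested genes. Normalised counts, used below, are raw counts scaled by the trimmed mean of M-values (TMM) library sizes.

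Sox7, a SOXF factor of early vascular and blood development, had 30.3, 22.6 and 32.0 normalised counts in the insoluble libraries and 43.7, 53.1 and 55.4 in OE. The groups did not overlap, as was so with OE higher for 26.2% and with OE lower for 23.1% of all tested genes. The log2 fold change was 0.83 ± 0.22 (SE), a 1.78-fold rise (edgeR BH-adjusted p = 0.00132). Over 15 alternative settings the adjusted or deposited p of this rise ran from 0.000923 to 0.0238, and each kept its direction and call.

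Erg rose by a log2 fold change of 0.50 ± 0.21 (SE), or 1.42-fold, at an edgeR BH-adjusted p of 0.0469. The insoluble libraries had 31.4, 31.2 and 47.4 normalised counts and the OE libraries 59.7, 43.1 and 51.2, and the groups overlapped because insoluble library 3 was above OE library 2. DESeq2 did not call it (adjusted p = 0.17), and the call was lost with the totals of the listed genes as library sizes (0.109), without a low-count filter (0.0558) and with a replicate block (0.0798). It was also lost without insoluble library 1 (0.212) or 2 (0.21) and without OE library 1 (0.226) or 3 (0.0587), and the p-value given by the authors' deposited table, unadjusted, was 0.13.

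Sox17 rose by a log2 fold change of 0.30 ± 0.12 (SE), or 1.23-fold, at an edgeR BH-adjusted p of 0.0301. The insoluble libraries had 127.4, 135.6 and 125.7 normalised counts and the OE libraries 184.0, 153.9 and 139.0, with no overlap and OE library 1 the highest. DESeq2 did not call it (adjusted p = 0.14), nor did edgeR with the totals of the listed genes (0.144), and the authors' deposited table gave an unadjusted p-value of 0.115. It was lost as well without insoluble library 1 (0.12), 2 (0.074) or 3 (0.0924) and without OE library 1 (0.263), where the log2 fold change was 0.18 against 0.30.

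Sox18, a SOXF factor with a known role in lymphatic and blood vessel development, was not called in OE. The insoluble libraries had 112.3, 110.9 and 93.7 normalised counts and the OE libraries 97.5, 104.5 and 131.7, so the groups overlapped. The log2 fold change was 0.06 ± 0.13 (SE; edgeR BH-adjusted p = 0.761), and its sign turned with the totals of the listed genes (-0.04), without insoluble library 3 (-0.0036) and without OE library 3 (-0.07).

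Whether the 4 genes differed from one another in OE was tested on log2 ratios of counts within a library. The ratio of Sox7 to Sox18 was the only one of 6 whose groups did not overlap, at -1.89 ± 0.37 in the insoluble fraction and -1.12 ± 0.14 in OE (SD, n = 3 each), a difference of 0.77. Its exact two-sided permutation p was 0.1, the smallest that 3 libraries against 3 allow, and 0.45 after BH adjustment over the 6 pairs. The exact permutation p of the other 5 ratios ran from 0.2 to 0.5. With 3 libraries against 3 this test cannot go below 0.1, so it says neither that the 4 genes changed alike in OE nor that they did not. Leaving out 1 library gave from 1 to 3 ratios without overlap.

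The genes whose normalised counts followed each of the 4 most closely over the 6 libraries of this comparison were chosen by Pearson's r on the log2 scale among genes with a mean of at least 50. Sox7 was followed by Abcb6 (r = 0.99), mt-Nd2 (0.969) and Gm12191 (0.964). Erg was followed by Hspg2 (0.959), Nbeal2 (0.92) and Rps27rt (0.913), and Sox17 by mt-Co1 (0.92), Hydin (0.91) and Opa1 (0.878). Sox18 was followed by Lef1 (0.843), Fgd5 (0.814) and Atp2a3 (0.804). Among the 4 genes themselves r ran from 0.711 for Sox7 and Erg to -0.25 for Sox17 and Sox18. These are descriptions over 6 libraries that share their scaling and, for genes that rose in OE, the difference between groups.

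The comparison of RIP with the insoluble fraction was fitted the same way over 190 tested genes. All 4 genes were called higher in RIP, where 40.5% of all tested genes were called higher, 44.7% lower and 85.3% in either direction. The median log2 fold change was 1.31 over the 4 genes and 0.03 over all tested genes. Upper-quartile scaling moved the median over all tested genes to -0.32 and totals of the listed genes moved it to 0.14, and the 4 genes stayed called higher under both.

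For Sox7 the insoluble libraries had 32.5, 24.3 and 34.2 normalised counts and the RIP libraries 494.1, 569.9 and 541.4. Its log2 fold change was 4.14 ± 0.14 (SE), or 17.6-fold (edgeR BH-adjusted p = 1.82e-08), which ranked 10 from the top among the 190 genes. Over the alternative fits to the counts the log2 fold change ran from 3.79 to 4.25. For Erg they had 33.5, 33.5 and 50.8 against 128.9, 139.1 and 123.9 normalised counts. Erg was 3.34-fold higher in RIP, at 1.74 ± 0.18 (SE) on the log2 scale (edgeR BH-adjusted p = 2.47e-05).

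Sox18 and Sox17 were higher in RIP by nearly the same factor. For Sox18 the insoluble libraries had 120.1, 119.1 and 100.2 normalised counts and the RIP libraries 203.7, 223.8 and 197.8. This was a 1.84-fold rise, at 0.88 ± 0.12 (SE) on the log2 scale (edgeR BH-adjusted p = 0.000146). For Sox17 they had 136.3, 145.7 and 134.5 against 236.3, 276.5 and 248.7. Its rise was 1.83-fold, at 0.87 ± 0.11 (SE) on the log2 scale (edgeR BH-adjusted p = 6.77e-05). Upper-quartile scaling lowered the log2 fold changes to 0.53 for Sox18, 0.52 for Sox17 and 1.40 for Erg. For all 4 genes the RIP libraries lay above the insoluble libraries without overlap, as they did for 43.2% of all tested genes, while 44.7% lay below without overlap.

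In each RIP library the ratios of Sox7 and of Erg to Sox17 and Sox18 lay above those of every insoluble library. The log2 ratio of Sox7 to Sox17 went from -2.19 ± 0.32 in the insoluble fraction to 1.07 ± 0.04 in RIP (SD, n = 3 each), and that of Sox7 to Erg from -0.35 ± 0.27 to 2.03 ± 0.09. The ratio of Sox17 to Sox18 was 0.30 ± 0.12 in the insoluble fraction and 0.28 ± 0.06 in RIP, a difference of -0.01 within the spread (exact permutation p = 1). The other 5 of 6 ratios did not overlap between groups, each with an exact two-sided permutation p of 0.1, the smallest the design allows, and 0.12 after BH adjustment. This count of 5 was the same in each of the 6 analyses that left out 1 library. How many ratios of other gene pairs separate in RIP or in OE was not computed. Of single genes tested in RIP, 43.2% lay above and 44.7% below without overlap. The 5 ratios are thus not shown to be particular to these genes.

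The deposited fold changes could not serve to check that RIP counts stand beside the right gene names. Over the 194 genes, Spearman's rho between the ratio of insoluble to RIP counts and the fold change that the authors' deposited table lists was -0.0993 across genes, against 0.997 in the OE table. For the 4 genes the authors' deposited RIP table gave fold changes of 0.428 for Sox7, 0.772 for Erg, 0.852 for Sox18 and 0.877 for Sox17, in a column whose direction is not stated and in which 82% of genes were below 1. The raw ratios of insoluble to RIP counts were 0.0429, 0.225, 0.411 and 0.413, so the column has the direction of the counts only if it is read as insoluble to RIP, and then with much smaller changes. Read as RIP to insoluble, it would place all 4 genes lower in RIP, against their counts. The unadjusted p-values in the authors' deposited table were 0.418 for Sox7, 5.44e-06 for Erg, 0.00235 for Sox18 and 0.18 for Sox17, so by that column the RIP calls of Sox7 and Sox17 were not reached. In the OE table the authors' deposited fold changes were 0.572 for Sox7, 0.726 for Erg, 0.832 for Sox17 and 0.977 for Sox18, as insoluble to OE.

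Other transcription factors of endothelial cells were counted from a list of 52 genes. In OE, 6 of the 10 listed members were tested, 1 was called higher and 0 lower, where 21% of all tested genes were called higher and 18.5% lower. Their median log2 fold change was -0.03 against -0.01 over all tested genes. The gene that rose was Gata2, a zinc-finger factor of endothelial and blood cells, from 868.3 to 1191 normalised counts, by 0.46 ± 0.05 (SE) on the log2 scale (edgeR BH-adjusted p = 9.18e-13). Ets1, an ETS factor like Erg, had a log2 fold change of 0.02 ± 0.09 (SE) and was not called.

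In RIP all 7 listed members were tested, with 2 called higher and 5 lower, where 40.5% of all tested genes were called higher and 44.7% lower. Their median log2 fold change was -0.50 against 0.03 over all tested genes. Foxl2, best known from the ovary rather than from vessels, and Foxf1, a forkhead factor of vessels and mesenchyme, were higher, with log2 fold changes of 6.76 ± 0.19 and 4.94 ± 0.05 (SE). Foxl2 had 4, 2 and 4 raw counts in the insoluble libraries and passed the low-count filter only through RIP, where it had 531, 495 and 462, so its call adds no support to the count for the list. Ets1 fell by 1.52 ± 0.10 on the log2 scale, from 310.1 to 108.1 normalised counts, while Erg rose. Tbx1, Lef1, Tbx3 and Gata2 had log2 fold changes of -1.66, -0.58, -0.50 and -0.33.

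The endothelial effector list held receptors, junction proteins and Notch components, among which are reported targets of SOXF factors and ERG. In OE, 17 of the 22 listed members were tested, 2 rose, 3 fell and 12 were not called, beside 21% higher and 18.5% lower over all tested genes. Their median log2 fold change was -0.06. She, which encodes an SH2-domain adaptor protein, rose from 211.3 to 373.5 normalised counts (log2 fold change 0.83 ± 0.09, SE). Flt1, a VEGF receptor gene, rose at low counts, with 3, 16 and 8 raw counts in the insoluble libraries against 26, 24 and 15 in the OE libraries, which overlapped. It passed the low-count filter only through the OE libraries, so its call adds no support to the count of effectors that rose. The lectin-like surface receptor gene Cd93, the endothelial phosphatase gene Ptprb and Notch4 fell by 0.74, 0.45 and 0.30 on the log2 scale. Cdh5, which encodes VE-cadherin and is a known ERG target, had a log2 fold change of 0.08 ± 0.14 (SE) and was not called, nor was Dll4, a Notch ligand gene, at -0.06 ± 0.11.

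In RIP, 17 of 18 listed effectors were tested, 3 rose, 7 fell and 7 were not called, beside 40.5% higher and 44.7% lower over all tested genes. Their median log2 fold change was 0.13. Among those not called, Tie1 had 65, 693 and 56 raw counts in RIP libraries 1 to 3, with 1 library far above the others. The genes that rose were Hspa12b, a heat-shock protein family gene, by 5.37 ± 0.23 (SE), the endothelial guidance receptor gene Robo4 by 3.03 ± 0.12 and the adhesion receptor gene Adgrf5 by 1.01 ± 0.07 on the log2 scale. Hspa12b had 10, 17 and 8 raw counts in the insoluble libraries and passed the low-count filter only through RIP, so its call adds no support to the count either. She, Kdr, Cdh5, Flt4 and Ptprb had the lowest log2 fold changes, at -2.85, -0.77, -0.71, -0.63 and -0.53. She was thus higher in OE and lower in RIP, whereas Sox7 was higher in both.

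**Figure D4:**
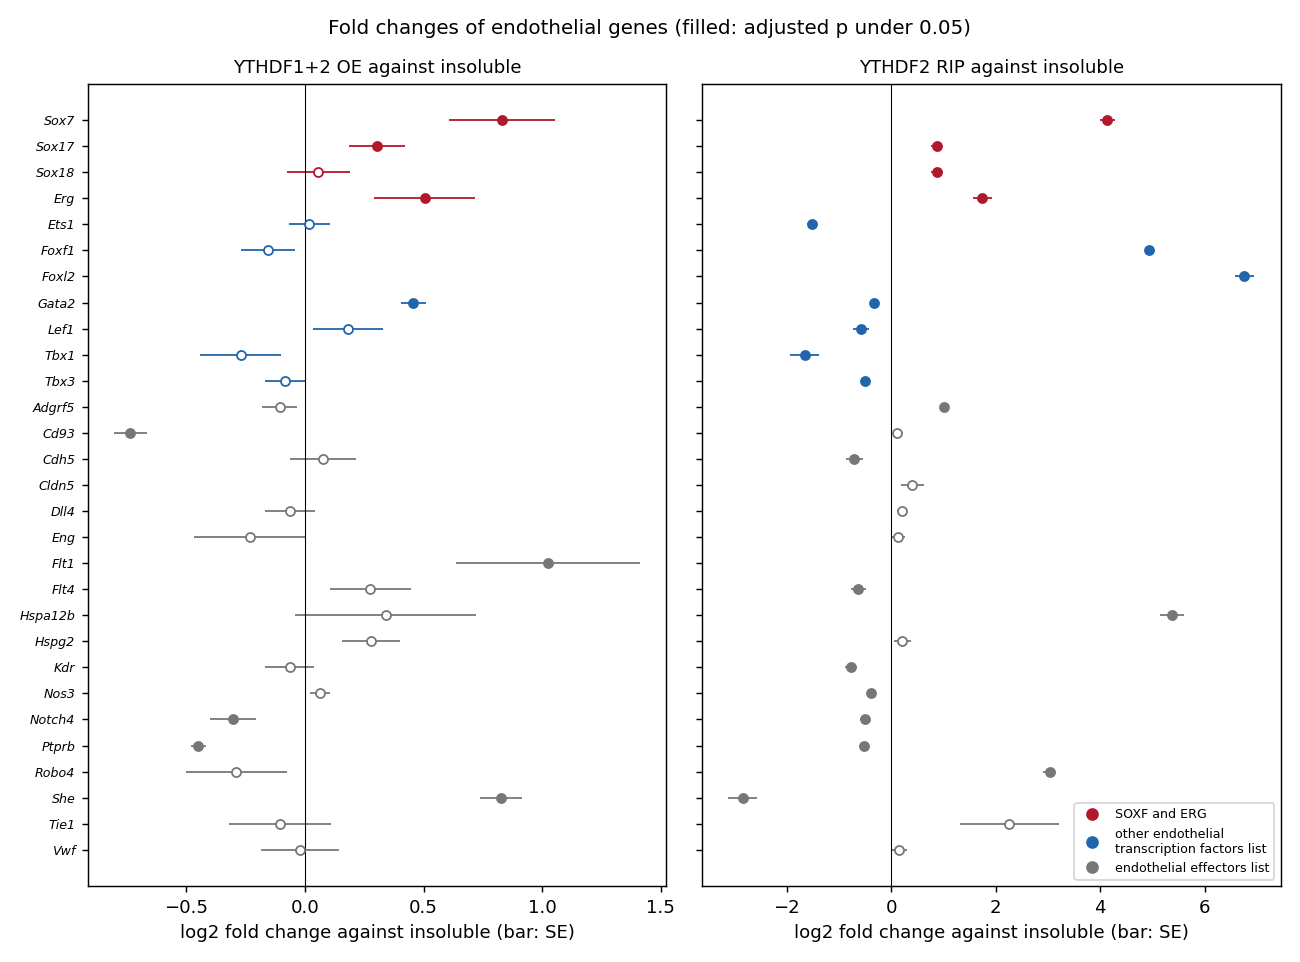
Log2 fold change against the insoluble fraction with its SE for the 4 genes (red), the endothelial transcription factor list (blue) and the endothelial effector list (grey), in OE (left) and RIP (right, on a wider axis); filled points were called. In OE the 4 genes lie between 0.06 and 0.83, and in RIP Sox7 stands at 4.14, Erg at 1.74 and Sox17 and Sox18 near 0.9.

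Some markers of other cell types were called as well. Over all tested genes 21% were called higher and 18.5% lower in OE, and 40.5% higher and 44.7% lower in RIP. Of 15 mural cell markers 4 were listed in the OE table and 3 tested. Notch3 and Myh11 rose in OE by 0.35 ± 0.10 and 0.50 ± 0.19 on the log2 scale (SE), and Des was not called. The summed normalised counts of the 4 were 330.8 to 378.9 in the insoluble libraries and 391.8 to 442.5 in OE. In RIP, where 3 were listed, Myh11 rose by 1.73 ± 0.15, Des fell by 0.66 ± 0.12 (log2, SE) and Notch3 was not called, and the sums were 353.9 to 407.0 in the insoluble libraries and 452.6 to 502.1 in RIP. Of 24 microglia and myeloid markers 2 were listed, Chil3 and Ngp, which both fell in OE, by 0.96 and 0.80, and both rose in RIP, by 2.57 and 1.08. With 2 of 24 markers listed, a shift of the cell type as a whole cannot be read from Chil3 and Ngp. Their summed normalised counts were 149.6 to 199.2 in the insoluble libraries and 91.6 to 101.4 in OE, and 160.7 to 213.1 and 681.5 to 813.3 in the RIP comparison. The summed endothelial effectors were 9176 to 9356 in the insoluble libraries and 7754 to 8016 in OE, of which Ptprb alone took a mean of 5006 and 3662. In the RIP comparison the sums were 9838 to 9997 in the insoluble libraries and 8485 to 9522 in RIP. No listed marker was at 0 in all libraries, and the part of these cell types in the changes of Sox7, Sox17, Sox18 and Erg was not tested.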

How the data were processed

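The values used were deposited raw counts, named so per the file headers, for selected genes in each library. The submitters' processing notes name mm10, Bowtie2 2.2.3, HISAT2 2.1.0 and HTSeq 0.6.0 with no roles, and the selection criterion and use of strand are not given in the sources used here. Blank rows, 724 of 961, were left out of the OE counts. The authors' deposited mean signal was not used. Their deposited fold change is a linear ratio and their deposited p-value is unadjusted, per the file headers.

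Each comparison was fitted on its 6 libraries with edgeR 4.0.16 (R 4.3.3): filterByExpr (minimum count 10, minimum total 15), TMM, glmQLFit, glmQLFTest and BH adjustment over the whole table. The SE is the absolute log2 fold change divided by the square root of the F statistic. DESeq2 1.42.0 was an alternative. The fits were tested on simulated data. Within-library ratios used a pseudocount of 0.5 and an exact permutation test, and those in RIP were added after the data were seen. Sequences and positions came from GENCODE M21 (GRCm38), in which 236 of 237 identifiers matched.

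The 4 genes and the lists were chosen with earlier results of these data known. The text names all 4 genes and, per list and comparison, called members up to the 5 highest and 5 lowest. Ets1, Cdh5, Dll4, Des, Notch3 and Tie1, where not called, were named after their values were seen, as were Fis1 and Snhg11. No red cell marker of 6 was among the genes analysed here. In pairwise chi-square tests (expected counts of 5 or more) the insoluble libraries differed by somewhat more than sampling noise over the OE table, with chi-square over degrees of freedom from 1.17 to 1.33 and p = 0.0211 for libraries 1 and 2, 0.0011 for 1 and 3 and 0.0457 for 2 and 3, and were kept as 3. Over the RIP table p was 0.0812 for libraries 2 and 3. The ratio was 1.53 to 2.59 among OE and 5.96 to 12.8 among RIP libraries. In RIP libraries 1 to 3, Fis1 had 871, 76 and 752 raw counts and Snhg11 had 47, 479 and 428. As with Tie1, 1 library stood far from the others, which was not so for Sox7, Sox17, Sox18 and Erg. The part of such genes in the ratio was not computed, and the cause was not tested. No molecular identifiers are named in the sources used here, so counts may include copies of a molecule.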

Additional observations from a re-analysis of the deposited data

How the results depend on the processing

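In OE, Sox7 kept its call in all 15 alternatives (leave-one-out p from 0.00249 to 0.0238), Sox17 in 8 and Erg in 6. Sox17 lost it in DESeq2 (adjusted p = 0.14), with totals of the listed genes (0.144) and by the authors' deposited p-value (0.115), and ran from 0.00538 to 0.263 when 1 library was left out. Erg lost it in DESeq2 (0.17), with totals (0.109), without a filter (0.0558), with the replicate block (0.0798) and by the deposited p-value (0.13), and ran from 0.01525 to 0.2261 when 1 library was left out. Sox18 turned its sign with totals (adjusted p = 0.806) and in 2 of the 6 fits without 1 library, whose p ran from 0.462 to 0.9855, and it was called in none of its 15 alternatives. Totals of the listed genes split the OE calls into 31 higher of 78, against 41 of 77. The number of genes called ran from 55 to 75 in OE and from 156 to 165 in RIP when 1 library was left out.

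In RIP all 4 genes stayed called higher in the 14 alternatives fitted to the counts. By the authors' deposited p-values 67 genes were under 0.05 in place of 162, and Sox7 (0.418) and Sox17 (0.18) were not among them; the cause was not tested. The difference in the Sox17 to Sox18 ratio ran from -0.0729 to 0.047 when 1 library was left out, turning sign in 2 of 6. In OE the ratios without overlap numbered from 1 to 3.

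With the replicate block 73 OE and 160 RIP genes were called and, of the 8 results on the 4 genes, changed only the call of Erg in OE. Same-numbered libraries did not deviate together (correlations from -0.21 to 0.09), so replicate numbers were treated as names only. Summing insoluble libraries 2 and 3 as 1, chosen after seeing the data, changed none of the 8 calls. Counts of 21 to 58 for Sox7 and of 29 to 71 for Erg in the insoluble and OE libraries limit what can be resolved there.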
